A study of Mus musculus with 6 samples.

Results

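Embryonic beta-globin transcripts divided the 6 brain libraries of this study into a high side and a low side that did not follow genotype. The share of embryonic beta-globin was computed in each library as the counts of Hbb-y and Hbb-bh1 over the summed counts of Hbb-y, Hbb-bh1, Hbb-bs and Hbb-bt, and a share of 10% was the dividing line. The high side held 3 of the 6 libraries (KO2, WT2 and WT3) and the low side the other 3 (KO1, KO3 and WT1). Because the sides were chosen from RNA of these same libraries, and the transcripts other than globins come from the same tissue, every contrast between the sides is given as a description without a p-value. Tests are reserved for genotype, which comes from the labels, and an interaction of genotype with side is given as a description.

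The libraries were made from total RNA of brains dissected whole from C57BL/6 mouse embryos at E14.5, in midgestation. The KO libraries came from Mfsd7c-/- embryos, in which the gene for a membrane transporter also named Flvcr2 is disrupted, and the WT libraries from wild-type embryos. No treatment is listed, and both genotypes share the strain, tissue and stage. The sources used here do not give the deleted part of the gene, the litters, or whether embryos were pooled, so the p-values for genotype measure the spread between these 6 samples.

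Red blood cells of the mouse embryo arise in separate waves. Primitive erythroid cells form in the yolk sac and carry embryonic globins such as Hbb-y, Hbb-bh1 and the alpha-like Hba-x. Definitive erythroid cells, made later by the fetal liver, carry the adult beta-globins Hbb-bs and Hbb-bt, and over midgestation they replace the primitive cells in the circulation. Blood left in the vessels of a dissected brain brings these transcripts into a brain library, so the share describes the blood that was sampled with the tissue. In bulk RNA, fewer cells of a type and less RNA per cell cannot be told apart.

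The beta-globin genes lie in 1 cluster on chromosome 7 of GRCm38, all on the minus strand. Hbb-y is at chr7:103851749-103853216, Hbb-bh1 at chr7:103841637-103843164, Hbb-bs at chr7:103826534-103828096 and Hbb-bt at chr7:103812524-103813996. Hba-x lies in the alpha cluster, at chr11:32276400-32278116 on the plus strand. The 120 bases before the RefSeq start (GRCm38.p6) are shown for an embryonic and both adult beta-globin genes, because these are the genes whose balance defines the sides, and for Alas2, the erythroid gene other than globins with the greatest difference between them. The capitals mark CACCC, the core of the element bound by KLF1 in adult beta-globin promoters, and CCAAT, each searched on both strands (a reverse-strand match of CACCC reads GGGTG, and one of CCAAT reads ATTGG). No entry for Hbb-bh1 was in the table used.
Hbb-y, chr7:103853208-103853327, minus strand: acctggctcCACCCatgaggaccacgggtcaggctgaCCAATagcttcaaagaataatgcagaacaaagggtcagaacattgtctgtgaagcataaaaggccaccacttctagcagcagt
Hbb-bs, chr7:103827929-103828048, minus strand: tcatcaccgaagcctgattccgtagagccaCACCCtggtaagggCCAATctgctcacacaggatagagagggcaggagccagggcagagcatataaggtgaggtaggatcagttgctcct
Hbb-bt, chr7:103813924-103814043, minus strand: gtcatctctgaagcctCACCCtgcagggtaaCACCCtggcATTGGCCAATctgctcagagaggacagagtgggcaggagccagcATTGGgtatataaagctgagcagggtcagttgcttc
Alas2, chrX:150547297-150547416, plus strand: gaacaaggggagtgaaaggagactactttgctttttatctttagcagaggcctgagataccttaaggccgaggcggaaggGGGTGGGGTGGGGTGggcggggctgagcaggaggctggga

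All 3 beta-globin windows hold both motifs, and the window of Alas2 holds CACCC on the reverse strand and no CCAAT. The motif CACCC occurs in 31.7% and CCAAT in 21.3% of 32851 promoter windows of this length, so a match describes the letters and is no evidence of binding. The longest open reading frames of Hbb-bs and Hbb-bt, of 444 bases each, were 99.8% identical and differed at 1 base. Reads from these adult genes may therefore have been exchanged or dropped in counting. An exchange would not alter their sum, on which the share rests, whereas dropped reads would lower that sum and raise the embryonic share by an amount that cannot be worked out from the counts. Hbb-y was 74.3% identical to Hbb-bs and 76.4% to Hbb-bh1, so the embryonic and adult genes are well apart in sequence.

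Embryonic beta-globin made up 2.80% of beta-globin counts in KO1 (95% exact binomial interval 2.70 to 2.91), 5.03% in KO3 (4.90 to 5.16) and 4.49% in WT1 (4.34 to 4.64). It made up 23.6% in KO2 (23.3 to 23.9), 23.3% in WT2 (22.9 to 23.7) and 26.5% in WT3 (26.0 to 26.9). The member nearest below the dividing line was KO3 at 5.03% and the nearest above it was WT2 at 23.3%, so no library lay close to the line. These intervals cover counting error only, since reads without molecular identifiers are not independent molecules.

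The gap came from both kinds of globin. Hbb-y, the main embryonic beta-globin, had 2728, 5621 and 3303 counts in KO1, KO3 and WT1, against 14303, 9146 and 10985 in KO2, WT2 and WT3. Hbb-bs, an adult beta-globin, went the other way, with 74084, 81710 and 54442 counts on the low side against 34705, 22640 and 22725 on the high side. Neither gene overlapped between the sides, but both enter the rule that set the sides, so this is no separate result. Hbb-bt followed Hbb-bs, with 22537, 25859 and 16862 counts on the low side and 11948, 7781 and 8082 on the high side. Hbb-bh1 was scarce everywhere, at 56, 76 and 48 counts on the low side and 116, 79 and 97 on the high side.

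The alpha-globins, which the dividing rule did not use, parted the libraries in the same way. Hba-x, the embryonic alpha-like globin, made up 1.05%, 1.49% and 1.60% of its summed counts with Hba-a1 and Hba-a2 in KO1, KO3 and WT1. It made up 4.46%, 4.71% and 5.51% in KO2, WT2 and WT3. The sides did not overlap on this measure either, and since alpha- and beta-globin come from the same blood cells the measures are not independent. All globins together were 0.340%, 0.349% and 0.240% of a library's counts on the low side and 0.176%, 0.116% and 0.126% on the high side, so the side with the larger embryonic share held less globin RNA in total.

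**Figure D1:**
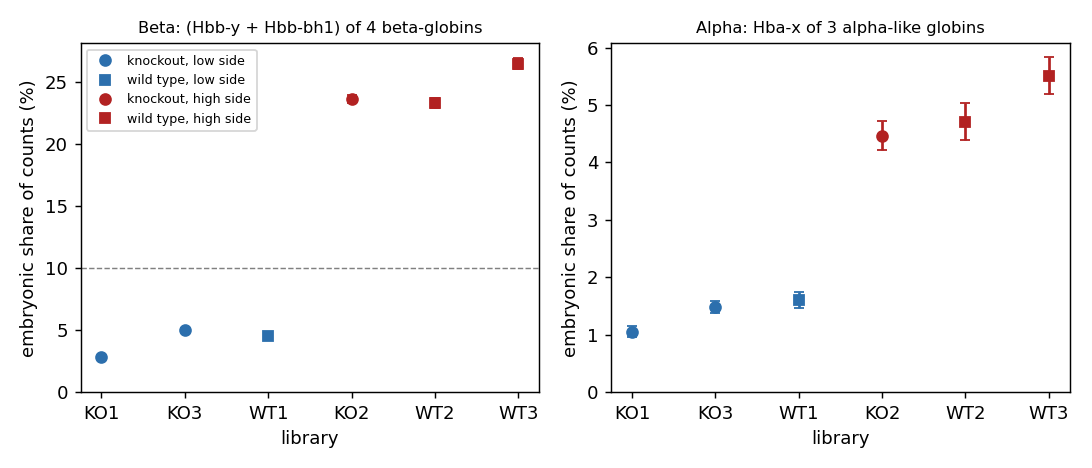
Globin measures in each library, grouped by side, with point shape for genotype and error bars for the 95% exact binomial interval where drawn. Embryonic beta-globin is at most 5.03% of beta-globin counts on the low side and at least 23.3% on the high side, and each side holds both genotypes.

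The genotypes overlapped on each of these measures. The embryonic beta share, from which the sides were drawn, was 10.5% ± 11.4 (SD, n = 3) in KO and 18.1% ± 11.9 (SD, n = 3) in WT. The embryonic alpha share was 2.33% ± 1.86 (SD, n = 3) in KO and 3.94% ± 2.06 (SD, n = 3) in WT. Total globin was 0.288% ± 0.0974 (SD, n = 3) of counts in KO and 0.161% ± 0.0692 (SD, n = 3) in WT. With 3 libraries against 3 the smallest p that a two-sided exact permutation test allows is 0.1, so no p-value is given, and these values do not show that the genotypes are alike.

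Libraries held 43784619 to 50549673 counts. The forebrain gene Neurod6 was at 260 to 371 CPM (counts scaled to a library size of 1e6) in all 6, as a brain library should hold. After globins were left out, the leading principal component of log2 CPM held 50.2% of the variance and placed the low side at -43.9, -9.03 and -36.3 and the high side at 16.7, 35.5 and 37.0. Mfsd7c was at 2.76, 2.72 and 2.55 CPM in KO1, KO3 and KO2 and at 4.66, 5.80 and 5.18 CPM in WT1, WT2 and WT3, so each KO value lay below each WT value. Xist was at 1639 CPM in WT2, the 1 female library, and below 1 CPM in the other 5. Sex therefore also differs within the high side.

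Of 19555 genes measured apart from globins, 258 were higher and 203 lower on the high side by the call used here, which requires that the 3 high libraries do not overlap the 3 low ones and that the fitted difference is at least 2-fold. These are 1.32% and 1.04% of genes, or 2.36% in either direction. Without the fold minimum, 3263 genes (16.7%) were higher and 3071 (15.7%) lower with no overlap, 32.4% in all. The median log2 difference over all genes was -0.0033. The scaling of libraries brings this median near 0, so it cannot show whether a side was shifted as a whole. Of the genes called, 66 of the 258 higher and 130 of the 203 lower reached 1 CPM on their higher side. The total depended on the libraries used, being 1026 without KO2, 1038 without KO3, 704 without both KO1 and WT1 and 1097 without both WT2 and WT3, where fewer libraries make an absence of overlap easier to reach.

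The side differences mostly had the same sign in both genotypes. The KO libraries give 1 estimate of the side difference (KO2 against KO1 and KO3) and the WT libraries another (WT2 and WT3 against WT1), and they share no library. Over 15489 genes with a mean of at least 1 CPM, the 2 estimates had a Pearson correlation of 0.643 and a Spearman correlation of 0.575 across genes, which are not independent replicates, and 72.2% of genes had the same sign. Differences of at least 2-fold were seen in 606 genes in KO and 1086 in WT. Of these, 261 were at least 2-fold in the same direction in both, 101 higher and 160 lower on the high side, and 20 were at least 2-fold in opposite directions. Since the sides were set by the same RNA, this is a description and no test.

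**Figure D2:**
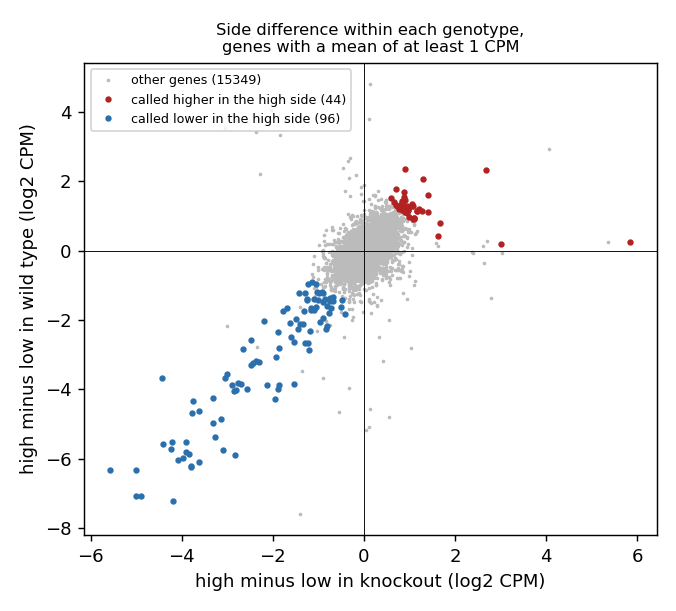
Side difference in KO (horizontal axis, log2 CPM, KO2 minus the mean of KO1 and KO3) against the side difference in WT (vertical axis, log2 CPM, mean of WT2 and WT3 minus WT1) for 15489 genes with a mean of at least 1 CPM. Coloured points are the 44 genes called higher and the 96 called lower on the high side, and the cloud runs along the diagonal with a Pearson correlation of 0.643.

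Erythroid genes other than globins were compared next, since the sides were set by blood. The list covers heme synthesis, the red cell membrane skeleton, erythroid transcription factors and iron uptake, and 25 of its 31 members passed the filter on low counts. Of these, 2 were called lower and 0 higher, against 1.04% and 1.32% of all genes. With no overlap at any fold 9 were lower and 1 higher, against 15.7% and 16.7% of all genes (median log2 difference -0.11). Alas2, the erythroid enzyme of the committed step of heme synthesis (chrX:150547375-150570638), was at 81.8, 73.6 and 55.0 CPM in KO1, KO3 and WT1 and at 31.9, 24.2 and 22.8 CPM in KO2, WT2 and WT3. All 3 high-side values lie below the lowest low-side value. Its log2 difference was -1.26 (SE 0.0657).

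Alas2 and total globin were both lower on the high side. The regulators that switch globins in erythroid cells were measured here in whole-brain RNA, so their levels cannot be assigned to blood cells. Of 13 measured, 0 were called. With no overlap at any fold 2 were higher and 2 lower, against 16.7% and 15.7% of all genes. Hmga2, a chromatin protein of fetal cells, was at 12.1, 11.7 and 9.11 CPM on the low side and 14.6, 12 and 15.7 CPM on the high side.

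Brain maturity lists differed by small amounts in opposite directions. Proliferation genes were higher on the high side and genes of maturing neurons lower. Of 30 cell cycle genes, 17 were higher and 0 lower with no overlap, against 16.7% and 15.7% of all genes, and 30 of 30 had a positive log2 difference, with a median of 0.22. None reached 2-fold. Mki67, a marker of cycling cells, was at 250, 231 and 194 CPM in KO1, KO3 and WT1 and at 289, 274 and 284 CPM in KO2, WT2 and WT3, a log2 difference of 0.39 (SE 0.0635). Cenpf, a kinetochore protein, was at 88.3, 86.2 and 72.9 CPM on the low side and at 107, 101 and 105 CPM on the high side.

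Of 30 radial glia and neural progenitor genes, 10 were higher and 1 lower with no overlap, against 16.7% and 15.7% of all genes, and none was called at 2-fold (median log2 difference 0.19). Pax6, a transcription factor of radial glia, was at 59.8, 62.7 and 60.0 CPM on the low side and at 76.9, 77.1 and 88.4 CPM on the high side. Dll1, the Notch ligand of newborn neurons, was at 31.3, 34.0 and 27.3 CPM against 40.1, 41.4 and 47.6 CPM. Both genes were higher in each high-side library than in any low-side library. The median of this list rested on WT1, and was 0.07 without it.

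Of 40 neuronal and synaptic maturation genes, 18 were lower and 1 higher with no overlap, against 15.7% and 16.7% of all genes, and none was called at 2-fold (median log2 difference -0.15). Vsnl1, a neuronal calcium sensor, was at 40.3, 41.3 and 40.8 CPM against 30.3, 31.7 and 24.7 CPM, a log2 difference of -0.48 (SE 0.0904). The low-side values lay close together, and all 3 high-side values were below them. Nrgn, a postsynaptic calmodulin-binding protein, had a log2 difference of -0.70 (SE 0.152).

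Of 22 cortical layer neuron genes, 7 were lower and 0 higher with no overlap, against 15.7% and 16.7% of all genes, and 1 was called lower, against 1.04%. Mef2c, a neuronal transcription factor, was at 124, 99.3 and 110 CPM on the low side and at 94.0, 74.0 and 69.8 CPM on the high side, a log2 difference of -0.43 (SE 0.125). Calb2, a calcium-binding protein of interneurons and Cajal-Retzius cells, was at 46.1, 48.6 and 55.2 CPM against 40.8, 36.9 and 36.8 CPM. For both genes the lowest low-side library lay above the highest high-side library.

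Of 15 oligodendrocyte lineage genes 3 were lower and 0 higher with no overlap, and of 21 astrocyte lineage genes 3 were lower and 0 higher. These shares are near the 15.7% of all genes that were lower with no overlap, while 16.7% of all genes were higher. The median log2 difference was -0.16 in the oligodendrocyte list, with 14 of 15 negative, and -0.10 in the astrocyte list, with 13 of 21 negative. The oligodendrocyte list mean, relative to each gene's mean, overlapped between the sides, at 0.12 in WT2 and -0.05 in KO1. Olig1, a transcription factor of oligodendrocyte precursors, was at 35.7, 35.3 and 44.3 CPM on the low side and at 24.0, 33.5 and 27.1 CPM on the high side. Of 28 microglia and macrophage genes 10 were lower and 0 higher with no overlap, against 15.7% and 16.7% of all genes. Mpeg1, a pore-forming protein of macrophages, was at 16.9, 15.9 and 15.5 CPM against 12, 10.5 and 11 CPM. The 19 heterochronic genes, which time developmental transitions, were split, with 3 higher and 3 lower, near those shares.

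**Figure D3:**
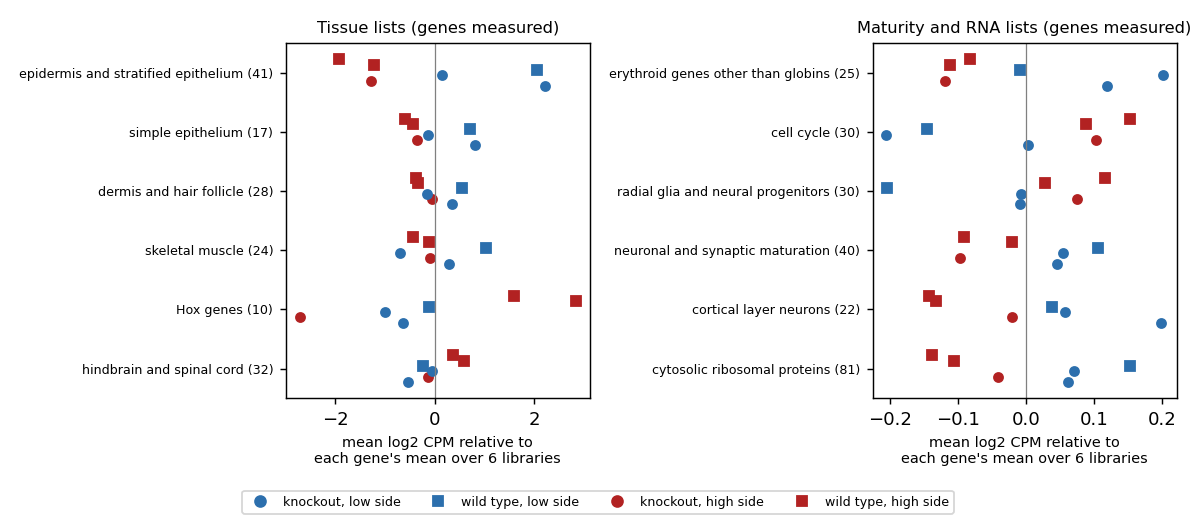
Mean log2 CPM of each list in each library, relative to each gene's mean over the 6 libraries, with the number of genes measured in parentheses and the horizontal axes on different scales. The epidermal list spans several log2 units between the sides, while the cell cycle, neuronal and ribosomal lists part the sides by less than 0.4 of a unit and the Hox list does not part them.

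Of the 34 lists, that of skin epithelium had the largest median difference between the sides. Of 44 genes of epidermis and stratified epithelium, 41 passed the filter. Of these, 29 were called lower on the high side and 0 higher, against 1.04% and 1.32% of all genes (median log2 difference -3.09). Summed over all 44, the level was 849, 198 and 754 CPM in KO1, KO3 and WT1 and 129, 107 and 104 CPM in KO2, WT2 and WT3. KO1 and WT1 thus stood far above the others, and KO3 lay above the high side by less. Without KO1 and WT1, 17 members were called lower with a median of -1.11, so the size of the difference rested on these libraries.

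Krt5, the keratin of basal epidermal cells (chr15:101707070-101712898, minus strand), was at 105, 20.4 and 80.1 CPM on the low side and at 3.73, 3.55 and 0.340 CPM on the high side. Its log2 difference was -4.74 (SE 1.22), and -2.45 without KO1 and WT1. Krtdap, a protein of differentiating keratinocytes, was at 12.1, 1.61 and 14.3 CPM against 0.0988, 0.140 and 0.0200 CPM. Krt77, another epidermal keratin, was at 40.9, 3.20 and 33.0 CPM against 0.573, 0.678 and 0.50 CPM. Calm4 and Dsg1b, a calmodulin-like protein and a desmoglein of keratinocytes, had 211, 13 and 251 counts and 73, 13 and 51 counts on the low side, and 0 counts in each high-side library.

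All 15 of the called genes with the lowest log2 differences and at least 1 CPM on the low side were at their highest in KO1 or WT1. They include the desmosomal plakin Ppl, the tight junction protein Cldn4 and the dermal matrix protein Dpt besides the keratinocyte genes. Simple epithelium followed in part, with 5 of 17 measured genes called lower, against 1.04% of all genes. Krt19, a keratin of simple epithelia, was at 14.3, 3.30 and 13.3 CPM on the low side and at 1.13, 0.797 and 0.800 CPM on the high side. Dermis and hair follicle genes were called lower in 1 of 28 cases, against the same 1.04%. Their median log2 difference was -0.31, with 24 of 28 negative. Skeletal muscle genes were called in 0 of 24 cases, against 2.36% of all genes in either direction. Their median was -0.69, with 21 of 24 negative. The mean of either list relative to each gene's mean was lower in KO3 than in KO2. It was -0.15 against -0.05 for dermis and -0.70 against -0.09 for muscle. Myh3, the embryonic myosin heavy chain, was at 11.2 CPM in WT1, 3.30 CPM in KO1 and at most 1.05 CPM elsewhere.

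Lists of other tissue around the brain held few called members. The shares called in the lists of cartilage and bone and of pituitary exceeded those of all genes, but rest on few genes. Of 25 cartilage and bone genes 3 were called lower and 0 higher, against 1.04% and 1.32% of all genes, and with no overlap at any fold 4 were lower and 2 higher (median log2 difference -0.26). Acan, the cartilage proteoglycan and one of those called, had 23, 20 and 51 counts on the low side and 14, 14 and 9 on the high side. Of 12 pituitary genes 2 were called higher and 0 lower, against 1.32% and 1.04% of all genes. With no overlap at any fold 4 were higher and 0 lower, against 16.7% and 15.7% of all genes (median log2 difference 0.39, with 10 of 12 positive). The called genes were Lhx3, a transcription factor of the pituitary and of spinal neurons, at 1, 2 and 1 counts on the low side and 42, 34 and 24 on the high side, and Tshb, a thyrotropin subunit, at 5, 7 and 7 counts against 28, 19 and 15. Lhx3 and Tshb passed the low-count filter through the 3 high-side libraries alone, so nothing is drawn from their calls or from the share they make up. Acan, Lhx3 and Tshb were named after their values were seen. With a minimum of 1 CPM in 3 libraries, 1 cartilage and bone gene and 0 pituitary genes were called in these directions.

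Other genes of these tissues stood out in single libraries. Ibsp, a bone matrix protein, was at 44.3 CPM in WT1 and at 0.119 to 1.05 CPM in the others. Of 28 genes of meninges and perivascular fibroblasts 2 were called lower, against 1.04% of all genes. They were Mgp, an inhibitor of mineralisation, and Col1a1, the main fibrillar collagen chain, which was at 302, 205 and 530 CPM on the low side and at 188, 151 and 150 CPM on the high side. The mast cell proteases Cma1 and Cpa3 were at 3.69 and 4.18 CPM in KO1 and 3.89 and 3.46 CPM in WT1, and no more than 0.593 CPM elsewhere. Pomc, the hormone precursor of the pituitary, was at 18.7 CPM in KO2 and at 3.07 to 3.83 CPM in the other 5.

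Hox genes, which mark hindbrain and spinal cord, did not follow the sides. Hoxb3 was at 14.4 CPM in WT2 and 6.30 CPM in WT3, at 0.0395 CPM in KO2, and at 0.209, 0.251 and 0.678 CPM on the low side. The level was summed over all 39 Hox genes listed, of which 10 passed the filter. It was 172 CPM in WT2, 44.5 CPM in WT3 and 1.24 CPM in KO2, against 3.8 to 7.7 CPM on the low side. The high side thus held both the 2 highest libraries and the lowest. Of the 10 that passed the filter, 1 was called lower, against 1.04% of all genes, and 0 higher. It was Hoxd8, a gene of more posterior trunk, at 2.18, 0.544 and 1.74 CPM on the low side and 0.198, 0.239 and 0.140 CPM on the high side.

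Of 32 hindbrain and spinal cord genes 1 was called higher, against 1.32% of all genes, and 5 were higher and 0 lower with no overlap, against 16.7% and 15.7% (median log2 difference 0.29). The share that was higher with no overlap is near that of all genes. Pax2, a factor of hindbrain and cord interneurons, was at 17.8 and 9.78 CPM in WT2 and WT3 and at 2.64 to 4.32 CPM in the other 4 libraries, KO2 included. Without KO2, 11 members were called higher. Robo3, the receptor that lets commissural axons cross the midline (chr9:37415669-37433246), was called higher and was highest in the same WT libraries, at 51.5 and 42.1 CPM. It was at 29.3 CPM in KO2 and at 8.83, 16.1 and 11.1 CPM on the low side, a log2 difference of 1.64 (SE 0.392), and 0.86 without KO1 and WT1. Of 25 forebrain genes 0 were called, with 1 higher and 3 lower with no overlap.

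Choroid plexus genes were called higher in 1 of 24 cases, against 1.32% of all genes. That gene, the bicarbonate transporter Slc4a5, was at 3.14, 10.3 and 5.17 CPM on the low side and at 10.5, 16.6 and 13.7 CPM on the high side, so KO3 nearly reached KO2. Its sign turned with a replicate block. Gdf7, a growth factor of the roof plate, was at 0.395, 1.38 and 1.06 CPM against 2.04, 2.77 and 1.96 CPM, and its sign turned in the same fit. How much of the difference in neural lists goes with the amount of skin, hindbrain or other attached tissue was not tested.

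**Figure D4:**
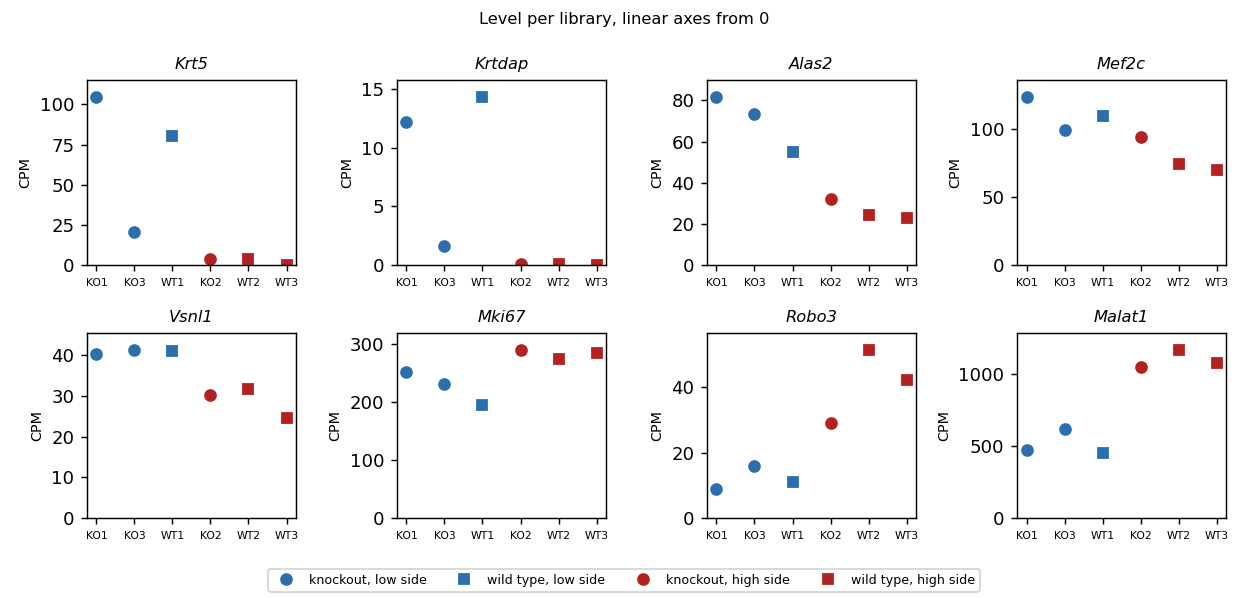
Level of 8 genes in each library in CPM on linear axes that start at 0, with colour for side and shape for genotype. Krt5 and Krtdap are high in KO1 and WT1 and near 0 on the high side, Alas2, Mef2c and Vsnl1 are lower in every high-side library, and Mki67, Robo3 and Malat1 are higher in each of them.

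The genes called in the other direction were mostly of other gene classes and mostly below 1 CPM. Of the 203 genes called lower, 177 were protein coding in GENCODE M21, whereas of the 258 called higher 45 were protein coding. The latter included 75 long noncoding genes, 53 loci of the class TEC (transcribed loci for which GENCODE awaits experimental evidence), 35 small RNA genes and 26 pseudogenes. As a share of the genes measured in each class, 14.8% of small RNA genes, 8.56% of TEC loci and 3.72% of long noncoding genes were called higher, against 0.293% of protein-coding genes and 1.32% of all genes. For calls in the lower direction the shares were 0.422%, 0.162%, 0.546% and 1.15%. Without KO1 and WT1, 52 small RNA genes, 80 TEC loci and 134 protein-coding genes were called higher, and 130 protein-coding genes lower. Without KO2 these counts were 67, 101, 160 and 334. With a minimum of 1 CPM in 3 libraries they were 2, 12, 7 and 70, beside 23 long noncoding genes and 1 pseudogene called higher. A gene can pass the low-count filter through the 3 libraries of its higher side alone, so the shares of scarce classes carry that limit.

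**Figure D5:**
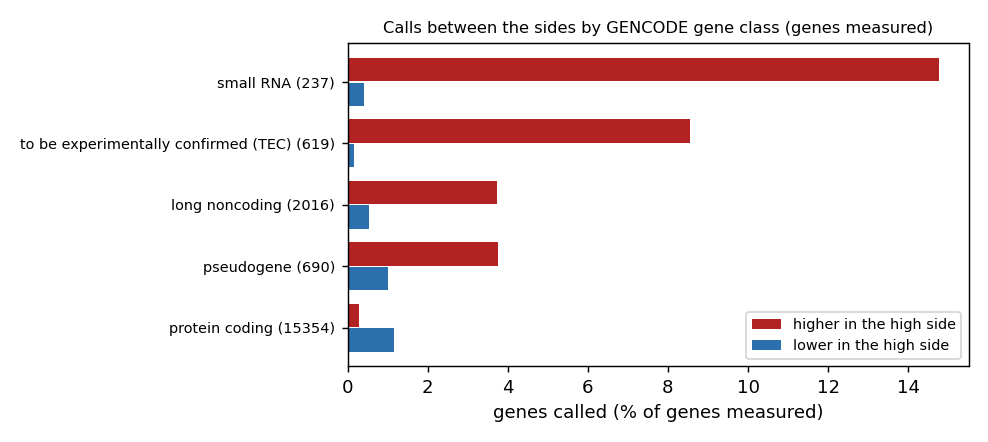
Percent of the genes measured in each GENCODE class (number in parentheses) that were called higher (red) or lower (blue) on the high side, with bars from 0. Higher calls reach 14.8% of small RNA genes and 8.56% of TEC loci, and lower calls are most frequent among protein-coding genes at 1.15%.

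Malat1, an abundant long noncoding RNA kept in the nucleus (chr19:5795690-5802672), was at 474, 622 and 455 CPM on the low side and at 1046, 1169 and 1079 CPM on the high side. The sides lie well apart, with a log2 difference of 1.12 (SE 0.155) that was 0.75 without KO1 and WT1. Among the other called genes with the highest log2 differences were 3 antisense transcripts, Sorbs2os, Kdm6bos and Tnk2os, at 0.542 to 0.732 CPM on the low side except Kdm6bos in KO1 at 0.348 CPM, and at 1.11 to 2.05 CPM on the high side. The sources used here do not say whether counting used strand, so these cannot be told apart from reads of the genes they overlap. Rpph1, the RNA of ribonuclease P, was at 16.0 CPM in KO2 and at 0.163 to 0.780 CPM in the other 5 libraries, so its call rests on KO2.

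Cytosolic ribosomal protein genes were lower on the high side as a group. Of 81 measured, 67 were lower and 0 higher with no overlap, against 15.7% and 16.7% of all genes, 79 had a negative log2 difference, and 1 was called at 2-fold. Their median log2 difference was -0.18. Summed over all 85 listed, the level was 36963, 37042 and 39324 CPM in KO1, KO3 and WT1 and 34659, 32613 and 31849 CPM in KO2, WT2 and WT3. Rps2, a small-subunit protein, was at 961, 892 and 955 CPM against 818, 709 and 740 CPM. The median shrank to -0.09 without WT1. The 42 nuclear-encoded respiratory chain genes had 7 lower and 0 higher with no overlap, near the 15.7% of all genes that were lower. Their median was -0.13, with 39 of 42 negative. The mean of that list relative to each gene's mean stood out in WT1 alone, at 0.21 against -0.07 to -0.002 elsewhere. Of 42 measured histone genes 3 were higher and 3 lower with no overlap, against 16.7% and 15.7% of all genes. Their median log2 difference was 0.25, with 29 of 42 positive. The histone mean relative to each gene's mean stood out in KO2, at 0.42 against -0.18 to -0.01 in the other libraries. RNA quality measures were not analysed here, and the part of RNA makeup in the other differences was not tested.

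Entering the side as a term in the model narrowed the spread between libraries of 1 genotype. The common biological coefficient of variation was 15.3% with genotype alone and 9.06% with the side added. With the side as a term, 233 of 19555 genes (1.19%) passed an FDR of 0.05 between KO and WT in edgeR's quasi-likelihood test, 202 higher (1.03%) and 31 lower (0.159%) in KO. With genotype alone 129 passed, and 122 of them were among the 233. Because the side was chosen from the same libraries, its term is not an independent covariate and these p-values are to be read with that limit. The count also moved with single libraries, to 562 without KO3, 100 without WT1, 133 without WT2 and 119 without WT3.

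The genes with the lowest p-values for genotype were parted by genotype on both sides. Pdk1, a kinase that restrains pyruvate entry into mitochondria, was at 127, 129 and 104 CPM in KO1, KO3 and KO2 and at 46.8, 39.8 and 35.8 CPM in WT1, WT2 and WT3. It rose in KO by 1.46 on the log2 scale (SE 0.0543; adjusted p = 8.4e-08, edgeR). Slc16a3, which exports lactate, rose by 2.87 (SE 0.101; adjusted p = 8.4e-08, edgeR). Ldha, lactate dehydrogenase, rose by 1.17 and Apln, a peptide ligand of endothelium, by 2.14 on the log2 scale (both edgeR adjusted p = 1.6e-07). In each side every KO value of Pdk1 lay above every WT value.

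Of the 38 hypoxia response genes, 24 rose and 0 fell in KO with the side as a term (edgeR, FDR 0.05), where 1.03% of all genes rose and 0.159% fell. With genotype alone 22 rose. Within the high side the median KO minus WT difference of the list was 0.59 log2 units, and within the low side 0.90, with 35 of 38 members positive in each. Between the sides the median of this list was -0.22, with 30 of 38 members negative. With no overlap 2 were lower and 0 higher, against 15.7% and 16.7% of all genes. Genes that differ by genotype tend to overlap between sides that mix genotypes, so this count says little about the side. Ndrg1, a stress-induced protein, was at 56.9, 45.6 and 54.1 CPM on the low side and at 33.1, 29.1 and 30.3 CPM on the high side. Adm, a vasodilating peptide, went with genotype, at 5.41, 10.1 and 4.80 CPM in KO1, KO3 and KO2 and at 1.38, 1.16 and 1.14 CPM in the WT libraries.

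For Alas2 the genotype call depended on the side term. With the side as a term it rose in KO by 0.47 on the log2 scale (SE 0.0653; adjusted p = 0.00265, edgeR), and with genotype alone the difference was larger, at 0.88, and did not pass (edgeR adjusted p = 0.758). Within the low side both KO values, 81.8 and 73.6 CPM, exceed the WT value of 55.0 CPM, and within the high side the KO value of 31.9 CPM exceeds the WT values of 24.2 and 22.8 CPM. The call was lost without WT1 (log2 difference 0.44, edgeR adjusted p = 0.0927) and without WT2 and WT3 (0.50, adjusted p = 0.180), at differences close to 0.47. Total globin follows the same order within each side, at 0.340% and 0.349% against 0.240% of counts and at 0.176% against 0.116% and 0.126%. Alas2 was singled out for this comparison after its values were seen, and whether the amount of blood in the dissected tissue moves with it was not tested.

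Mfsd7c itself fell in KO, at -0.93 on the log2 scale (SE 0.156; adjusted p = 0.0108, edgeR) and differed little between the sides, at 0.08 (SE 0.156). Its call was lost without KO2 (log2 difference -0.76, edgeR adjusted p = 0.145), WT1 (-1.11, adjusted p = 0.0781), WT2 (-0.87, adjusted p = 0.0729), WT3 (-0.95, adjusted p = 0.0743) or both WT2 and WT3 (-0.76, adjusted p = 0.506). It was negative in each of these fits.

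An interaction of genotype and side was fitted with edgeR on groups of which 2 hold 1 library each, KO2 on the high side and WT1 on the low side. These lone libraries are assumed to vary like the others, so a gene that is aberrant in 1 of them passes like one whose genotype effect differs between the sides. The sides also come from RNA of these same libraries, so this is no independent test. At an FDR of 0.05, 9 genes passed (0.046% of genes), of which 7 were high in KO2 alone, and 1308 genes (6.69%) had an unadjusted p under 0.05. The 9 became 1196 without KO1, 432 without KO3 and 15 without WT3, and no difference of the genotype effect between the sides is drawn from them. The number of genes whose genotype difference was at least 2-fold in the same direction on both sides was 95.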

How the data were processed

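The deposited table holds whole-number counts of reads per gene symbol, which the authors did not normalize (whole numbers with unequal library totals). The submitters' processing notes name STAR 2.5.2a, featureCounts, DESeq2 1.12.4 and 2 builds, mm10 and hg19, without saying what each served. For strandedness, gene annotation and reads shared by paralogs, the setting was not given in the sources used here.

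From the counts, 13 globin genes were left out, filterByExpr (edgeR 4.0.16) kept 19555 of 52459 genes, and libraries were scaled by TMM. Side differences are log2 values from a quasi-likelihood fit of side and genotype, printed with a standard error and no p. The prior count of 2 entered log2 CPM values only, and the fit kept its default. Genotype was tested in the same robust fit, called at a Benjamini-Hochberg FDR of 0.05. Of the symbols, 18918 were matched by name to GENCODE M21 on GRCm38. The naming rule takes the 15 highest and 15 lowest called genes with at least 1 CPM on the higher side and a symbol other than a clone name, the 3 members of each of 34 lists with the largest differences and at least 1 CPM, the globins, Mfsd7c, Krt5, Hoxb3 and Xist, and the 5 lowest genotype p-values. Some genes the rule takes are not reported here. The sides, lists and rule were chosen with earlier results of these data known. The fits were tested on simulated data.

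Libraries held 43784619 to 50549673 counts, so counting error is small for abundant genes and large for those below 1 CPM. Every pair of libraries differed by more than sampling noise. Alternatives were other scalings and filters, each library left out, other fold minimums, a continuous share term, a replicate block, DESeq2 1.42.0 and limma-voom (limma 3.58.1). Fits without 2 libraries were chosen with the data in view. All fits used R 4.3.3.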

Additional observations from a re-analysis of the deposited data

Results flagged for a closer look

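An interaction of genotype and side passed an FDR of 0.05 for 9 genes in edgeR's quasi-likelihood fit. The value given for each is the KO minus WT log2 difference on the high side minus that on the low side. Since the high side holds 1 KO library and the low side 1 WT library, each such difference rests on KO2 and WT1, which are assumed to vary like the other libraries. The sides were also set from RNA of these same libraries. A single aberrant library and a genotype effect that differs between the sides cannot be told apart here, and the values are given as a description.

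Most of these genes were high in KO2 alone. Rn7sk, the 7SK small nuclear RNA, had an interaction of 5.10, with 60.2 CPM in KO2 and 1.23 to 1.68 CPM in the other libraries. Rpph1, the RNA of ribonuclease P, had 5.69, with 16.0 CPM in KO2. Gm24270 had 3.10, with 50.9 CPM in KO2 and 5.86 to 6.80 CPM elsewhere. CT010467.1 had 2.98, with 3543 CPM in KO2 and 438 to 607 CPM elsewhere. Lars2, the mitochondrial leucyl-tRNA synthetase gene, had 2.47, with 1013 CPM in KO2 and 161 to 198 CPM elsewhere. Mir6236 had 2.44, with 14.8 CPM in KO2 and 1.94 to 2.43 CPM elsewhere. Pomc, the pituitary hormone precursor, had 2.41, with 18.7 CPM in KO2.

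The remaining genes were highest in WT1, by smaller margins. Igf2, a growth factor of fetal tissue, had 0.73, with 692 CPM in WT1, 565 CPM in KO2 and 472 to 495 CPM in the others. Ogn, a matrix proteoglycan of meninges and bone, had 1.11, with 33.6 CPM in WT1, 15 and 16.3 CPM in WT2 and WT3, and 21.8 to 24.0 CPM in the KO libraries. The cause was not tested for any of them.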

How the results depend on the processing

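Counts of genes called between the sides are given as all, higher and lower, against 461, 258 and 203. No low-count filter gave 1561, 958 and 603, and a minimum of 1 CPM in 3 libraries 121, 49 and 72. A minimum of 1.5-fold gave 1251, 841 and 410, of 4-fold 110, 16 and 94, and no minimum fold 6334, 3263 and 3071. Leaving out single libraries gave 583 to 1038, 338 to 626 and 221 to 459. Leaving out KO1 and WT1 gave 704, 489 and 215, and WT2 and WT3 1097, 612 and 485. Calls among list members, 51, became 30 with the 1 CPM minimum, 32 at 4-fold, 94 without WT2 and WT3, and 47 to 101 without single libraries.

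Genotype counts with the side as a term were 233, 202 and 31. They were 752, 508 and 244 with no filter, 129, 122 and 7 with genotype alone, 117, 109 and 8 at an FDR of 0.01, and 392, 311 and 81 in the DESeq2 Wald test. They were 1111, 614 and 497 without KO1 and WT1 and 56, 51 and 5 without WT2 and WT3. Without single libraries they were 100 to 562, 86 to 352 and 6 to 210. Genes lower in KO were 49 with the continuous share term and 17 in limma-voom. The 9 interaction genes became 30 in DESeq2, 221 with no filter and 7 to 1196 without single libraries. An interaction without KO2 or WT1 could not be fitted.

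Replicate numbers did not pair the libraries: deviations correlated at 0.587, 0.309 and 0.034 for numbers 1, 2 and 3, and KO2 correlated best with WT3 (0.478). With a replicate block, genes lower in KO were 74 with the side term and 70 without it, and the side differences of Gdf7 and Slc4a5 turned to -0.27 and -0.27. For 42 named genes called between the sides, no others turned among 558 fitted values over 14 settings; a gene below a setting's filter has no value there. The side, list and genotype counts above changed by no more than 1.5 times with DESeq2 size factors or upper-quartile factors, and the interaction, run with the former alone, gave 8. Causes were not tested.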
